A study of Aedes aegypti with 19 samples.

Results

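AAEL022783, AAEL005192, AAEL011260, AAEL019856 and AAEL013218 are 5 of the 19381 annotated genes counted in the ovaries of *Aedes aegypti*, and they were selected on their day 3 gene reads, as genes with the steepest rises in blood-fed (BF) ovaries on day 3 post blood meal (PBM). AAEL022783 is annotated as a long noncoding RNA (LncRNA) and the other 4 as protein-coding genes. Because the day 3 rises chose them, every day 3 value of the 5 genes below is a description without a test. Tests of the 5 genes are given only for days 10 and 20, whose libraries played no part in the choice. The spread used in these tests was estimated over all libraries, those of day 3 included. Among other named genes, day 3 tests are given only for marker genes and for the genes next to the 5 loci. The mosquitoes came from Poza Rica, Mexico, and were 4 to 7 days old at feeding. BF females took a single meal of warmed sheep blood, sugar-fed (SF) females a sugar meal, and both were then kept alike on 10% sucrose. The 19 libraries of ovarian total RNA, depleted of ribosomal RNA, fell into 6 groups of diet and day: 3 SF and 4 BF libraries on day 3, and 3 SF and 3 BF libraries on each of days 10 and 20. Each library came from a pool of ovaries. The study's methods call replicates 1, 2 and 4 biological replicates, each with a library in every group, and replicate 3 a further one that gave the extra BF library of day 3.

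*Aedes aegypti* is anautogenous, which means that its follicles rest until blood protein is available. After the meal the fat body makes yolk precursors, the oocytes take them up, and the follicle cells around each oocyte then lay down the eggshell, first the vitelline envelope and then the chorion. Day 3 PBM falls at the close of this cycle, and any eggs present were taken out of the ovaries before RNA was made. Females were able to lay, and the study states that a significant number had done so when sampled. By day 10 most BF females had laid. LncRNAs are transcripts without a long reading frame, and many are made in a single tissue or stage. The files give none of the 5 genes a descriptive name or function, so no role is assigned to them here, and no sequence of them was analysed here.

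In the AaegL5.0 assembly the 5 genes lie apart from each other on the 3 chromosomes, and none overlapped another annotated gene. AAEL005192 occupies chromosome 2 from 113794685 to 113795266 on the minus strand, with 514 bases of exon in 2 exons. AAEL022783 lies on the same chromosome from 124015067 to 124015686 on the plus strand, with 546 bases of exon in 2 exons. AAEL011260, the gene without an intron, covers 668 bases of chromosome 1 from 215403242 to 215403909 on the plus strand. Both remaining genes lie on the minus strand of chromosome 3. AAEL019856 runs from 149543374 to 149545222 with 1793 bases of exon, and AAEL013218 from 340947942 to 340981691 with 1797 bases of exon split by an intron of 31953 bases. The genes had 1 transcript and at most 2 exons each. Of the 13904 genes that passed the filter on low counts, 67.1% had 1 transcript and 25.5% had at most 2 exons. A RefSeq gene with identical start and end was found for 5 of 5, and RefSeq also calls the AAEL022783 locus an LncRNA.

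Total gene reads ranged from 34651820 to 56274885 per library, with a median of 48862876. The germline markers vasa, 336 to 564 RPKM over all libraries, and exuperantia, 838 to 1352 RPKM, were abundant in every group. RPKM is the authors' exon read count scaled to exon length and to the mapped reads of the library, and is used below wherever genes are compared with each other. Of the 4 follicle cell markers of the 15a eggshell family looked for, 15a-1 and AAEL014561 were found and stayed at or under 5.66 RPKM. Reads outside exons made up 11.9% ± 1.92 (SD, n = 4) of gene reads in BF ovaries on day 3 and 4.84% ± 0.751 (SD, n = 3) in SF ovaries, while the later groups had means of 4.21% to 5.57%. The part of this difference in the day 3 values below was not tested.

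AAEL005192 was the most abundant of the genes and one of the most abundant transcripts of the BF ovary on day 3. Its gene reads in the BF libraries of replicates 1 to 4 were 147767, 57733, 61126 and 94885, against 180, 199 and 119 in the SF libraries of replicates 1, 2 and 4. The lowest BF library thus lay far above the highest SF library. In CPM, the gene reads relative to the library's total after TMM scaling, its level was 2006 ± 825 (SD, n = 4) in BF and 3.36 ± 0.918 (SD, n = 3) in SF ovaries. The fitted log2 fold change was 9.22, the 2nd of the 13904 genes tested. By mean RPKM it was gene number 8 of 19381 in BF ovaries on day 3, at 3651 ± 1439 (SD, n = 4), and number 6950 in SF ovaries, at 6.14 ± 1.64 (SD, n = 3). Fewer or more cells of a type and less or more RNA per cell cannot be told apart in such bulk libraries.

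AAEL022783, the LncRNA, had the steepest fitted rise of all genes tested. It had 26454, 15771, 10294 and 24600 gene reads in the BF libraries of day 3 and 39, 48 and 18 in the SF libraries. The groups did not overlap, and replicate 3 was the lowest BF library. Its level was 435 ± 161 CPM (SD, n = 4) in BF and 0.711 ± 0.327 CPM (SD, n = 3) in SF ovaries, a fitted log2 fold change of 9.26. At 710 ± 246 RPKM (SD, n = 4) it was gene number 91 in BF ovaries, far up among protein-coding genes, and at 1.20 ± 0.540 RPKM (SD, n = 3) it was number 8782 in SF ovaries.

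AAEL019856 and AAEL011260 were of middle abundance in BF ovaries and close to the detection limit in SF ovaries. AAEL019856 had 7000, 4370, 2084 and 8579 gene reads in the BF libraries of day 3 against 20, 39 and 15 in the SF libraries. Its level was 124 ± 60.9 CPM (SD, n = 4) in BF and 0.502 ± 0.272 CPM (SD, n = 3) in SF ovaries, with a fitted log2 fold change of 7.96. AAEL011260 had 1101, 465, 355 and 1056 gene reads in the BF libraries and 2, 3 and 0 in the SF libraries. These 5 SF reads over 3 libraries limit the size of its rise, which was 494-fold by pooled reads with an exact 95% interval of 212 to 1523 that covers counting error only. Its fitted log2 fold change of 8.84 was the 3rd of all genes tested. On the RPKM scale, AAEL019856 was gene number 773 in BF ovaries at 64.8 ± 31.1 (SD, n = 4), and AAEL011260 was number 3198 at 23.3 ± 10.8 (SD, n = 4).

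AAEL013218 was the least abundant of the genes, and its rise was steeper in exons than over the whole gene. It had 921, 402, 250 and 575 gene reads in the BF libraries of day 3 and 8, 6 and 7 in the SF libraries, a fitted log2 fold change of 6.39. Counted over exons alone, the BF libraries held 667, 269, 157 and 377 reads and the SF libraries 2, 0 and 1. On exon reads its fitted log2 fold change was 8.71, which raised it from gene number 42 to number 5 of the day 3 ranking. With 3 SF reads in all, the pooled exon ratio was 407 with an exact 95% interval of 139 to 1975 for counting error. Its mean RPKM of 4.30 ± 2.30 (SD, n = 4) placed it at number 7617 in BF ovaries. For the other 4 genes, exon reads gave log2 fold changes of 9.43 (AAEL005192), 9.42 (AAEL022783), 9.04 (AAEL011260) and 8.16 (AAEL019856).

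**Figure D1:**
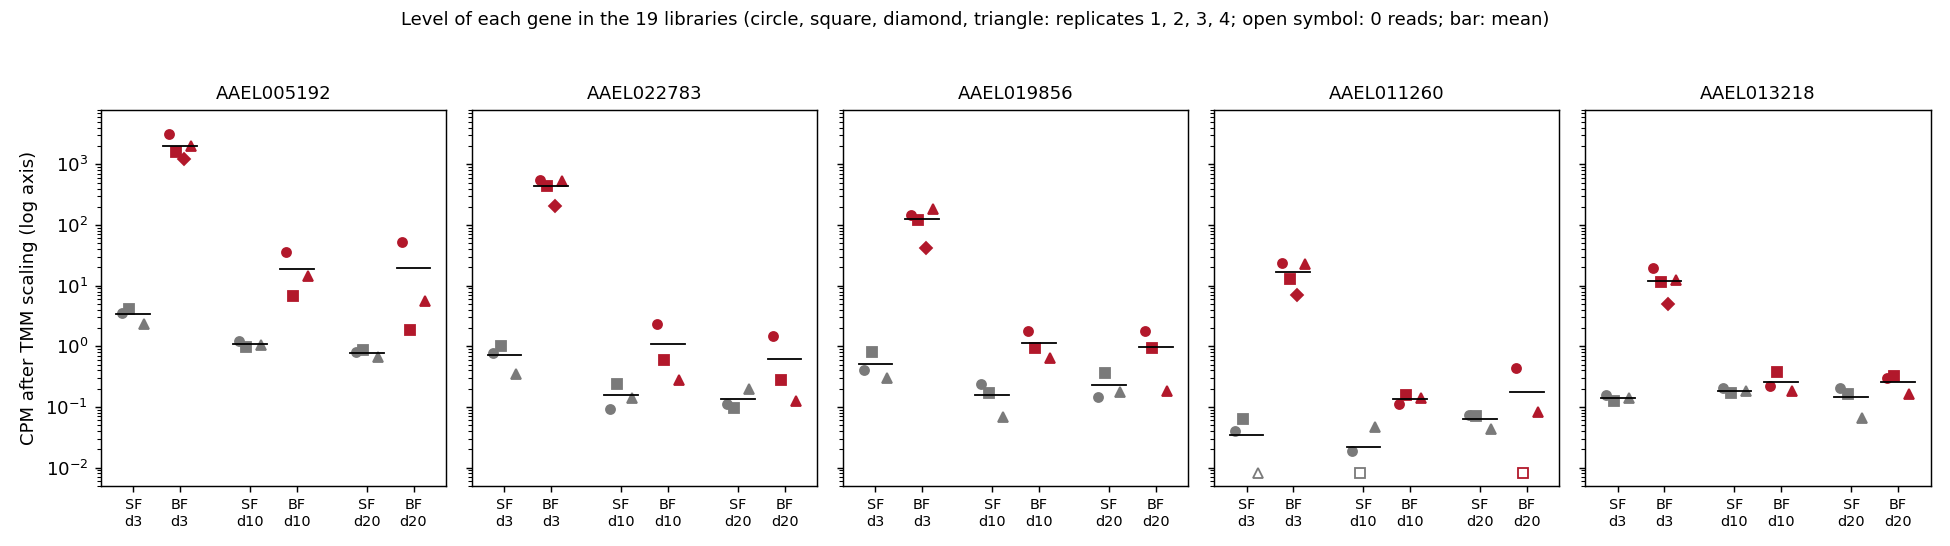
Level of each gene in every library, in CPM (gene reads relative to the library total after TMM scaling) on a log axis, by diet (SF, grey; BF, red) and day (d3, d10, d20). Symbols mark replicates, bars mark group means, and open symbols at the bottom mark libraries with 0 reads. On day 3 all BF libraries stand above all SF libraries of the same gene, and replicate 3 (diamond) is the lowest BF library in each panel.

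The 5 genes together took 0.155% to 0.392% of all gene reads in the BF libraries of day 3 and 3.14e-04% to 6.03e-04% in the SF libraries of that day. AAEL005192 alone accounted for 0.127% to 0.316% of BF reads. BF and SF libraries of day 3 did not overlap for 5 of 5 genes, where 32.0% of all tested genes had every BF library above every SF library, and nothing is read from this count because the choice used it. The spread among the 4 BF pools was moderate beside these differences. The highest library exceeded the lowest 2.57-fold for AAEL005192, 2.74-fold for AAEL022783, 3.30-fold for AAEL011260, 3.92-fold for AAEL013218 and 4.45-fold for AAEL019856. Replicate 1 was the highest library for 4 genes and replicate 4 for AAEL019856, and replicate 3 was the lowest for 5 of 5. Over the 2820 genes that rose on day 3 with a log2 fold change above 1, replicate 3 was the lowest BF library for 61.5%. Over all tested genes it was the lowest for 34.9%.

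The choice did not take the top 5 genes of this ranking. On gene reads, 37 other genes stood above AAEL013218, and 8 of them stood above AAEL019856. Those 8 were AAEL004894 with a log2 fold change of 8.54, AAEL023687 with 8.50, AAEL025196 with 8.32, AAEL021216 with 8.14, AAEL021936 with 8.09, AAEL023200 with 8.01, and AAEL011727 and AAEL022922 with 7.97 each. AAEL004894 and AAEL011727 had 4155 and 6810 BF reads over the 4 libraries, and the other 6 had 0 SF reads and between 113 and 183 BF reads, so that their fitted values rest on few reads. Just below AAEL013218 came AAEL000496 with 6.34, CECD_2 with 6.33 and AAEL005212 with 6.24. CECD_2 is by its symbol a cecropin, a family of antimicrobial peptides.

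Reads that fit several places touched only AAEL013218. All gene reads of AAEL005192, AAEL022783, AAEL011260 and AAEL019856 were counted as unique in 19 of 19 libraries. For AAEL013218 the unique share was 90.9% to 100%, with all reads unique in 14 of 19 libraries. Reads that cross an exon junction made up 30.9% of AAEL005192 exon reads in BF ovaries on day 3 (exact binomial 95% interval 30.7 to 31.0) and 32.5% in SF ovaries (28.4 to 36.8). For AAEL022783 the share was 40.1% in BF (39.7 to 40.4) and 36.9% in SF ovaries (27.6 to 47.0). For AAEL019856 it was 6.07% in BF (5.76 to 6.39) and 8.11% in SF ovaries (3.03 to 16.8). The intervals cover counting error only and overlapped between diets for each of these 3 spliced genes. No junction share is given for AAEL011260, which has 1 exon.

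The long intron of AAEL013218 behaved otherwise than its exons. On day 3 the 4 BF libraries held 254, 133, 93 and 198 intron reads, and the 3 SF libraries held 6 each. Intron reads thus made up 31.6% of the gene's reads in BF ovaries on day 3 (exact binomial 95% interval 29.6 to 33.6) and 85.7% in SF ovaries (63.7 to 97.0). In every later group intron reads were again the larger part, from 86.8% in BF ovaries on day 20 to 100% in SF ovaries on day 20. Per kilobase, exon reads exceeded intron reads 38.6-fold in BF ovaries on day 3. In BF ovaries 159 of 1470 exon reads crossed the junction, or 10.8% (9.27 to 12.5). Outside day 3 BF ovaries, the gene had at most 3 exon reads in any library, so its gene reads there are mostly reads from the intron.

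**Figure D2:**
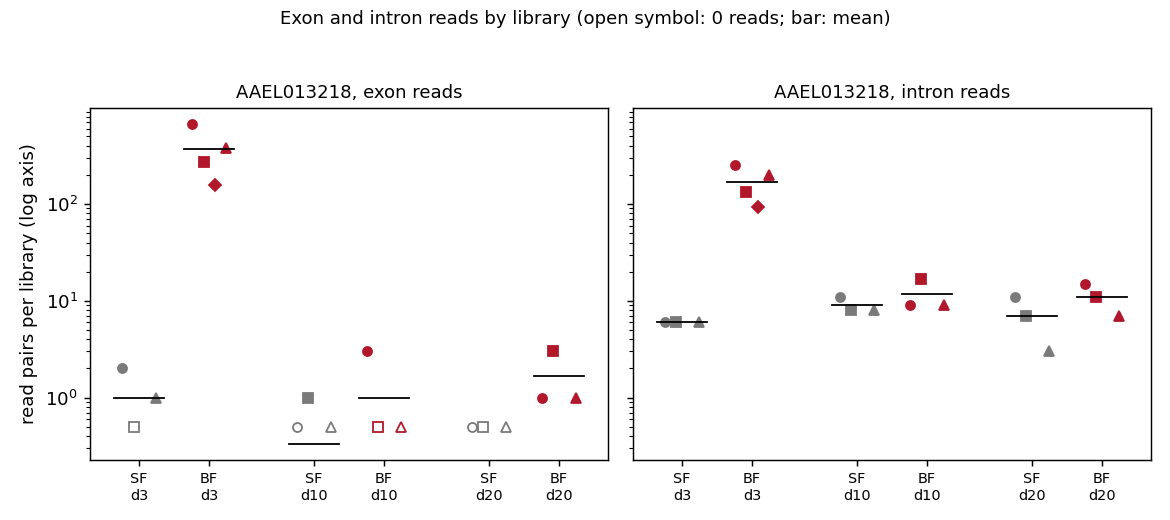
Exon reads (left) and intron reads (right) of AAEL013218 in each library, as read pairs on a log axis, with symbols for replicates, bars for group means and open symbols for 0 reads. Exon reads are 157 to 667 in the BF libraries of day 3 and 0 to 3 in all others, whereas 3 to 17 intron reads remain in every group outside day 3 BF.

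On day 10, AAEL005192 was still higher in BF ovaries, and it was the single gene of the 5 that passed the unpaired test over all groups. Its level was 35.6, 6.72 and 14.6 CPM in the BF libraries of replicates 1, 2 and 4 and 1.21, 0.974 and 1.04 CPM in the SF libraries. The lowest BF library stood above the highest SF library. The log2 fold change was 4.14 (SE 1.10, 95% interval 1.78 to 6.51, n = 3 against 3), and the FDR p-value was 0.0189 (edgeR's quasi-likelihood test with Benjamini-Hochberg adjustment over 13904 genes). Of the 6 fits that leave out 1 library, the call held in those without BF replicate 2 or 4 and ended in the other 4 (any SF library, or BF replicate 1), with log2 fold changes of 3.32 to 4.54 and edgeR FDR p-values of 0.0262 to 0.0678.

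AAEL022783, AAEL019856 and AAEL011260 also had BF libraries above SF libraries on day 10, without passing the unpaired test over all groups. AAEL022783 was at 2.35, 0.599 and 0.282 CPM in BF and 0.0932, 0.243 and 0.139 CPM in SF ovaries. The groups lay next to each other without overlap, and the log2 fold change was 2.78 (SE 1.13, interval 0.36 to 5.19, edgeR FDR p-value 0.0981), and 1.43 (0.484) without BF replicate 1. AAEL019856 was at 1.81, 0.954 and 0.645 CPM in BF and 0.242, 0.169 and 0.0693 CPM in SF ovaries. Here too the groups did not overlap, with a log2 fold change of 2.77 (SE 0.98, interval 0.68 to 4.87, edgeR FDR p-value 0.0605). With the replicate block its value of 2.76 passed (edgeR FDR p-value 0.0246), as did 2.79 with only the groups compared (0.0118). AAEL011260 had 6, 7 and 7 reads in BF and 1, 0 and 2 in SF libraries. At this depth its log2 fold change of 2.60 had an interval of -0.08 to 5.28 (edgeR FDR p-value 0.159). AAEL011260 passed the filter on low counts only through the day 3 BF libraries. It is therefore left out of the counts of BF against SF and the medians given below for days 10 and 20. The counts of changes between these days leave it out too.

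AAEL013218 had 12, 17 and 9 gene reads in the BF libraries of day 10 and 11, 9 and 8 in the SF libraries. These groups overlapped, and the log2 fold change of 0.47 had an interval of -0.60 to 1.53 (edgeR FDR p-value 0.553). Of these reads 3 in BF and 1 in SF ovaries fell in exons, and on exon reads the value was 1.31 (edgeR FDR p-value 0.634). On exon reads this gene passed the filter on low counts only through the day 3 BF libraries. On day 10, every BF library stood above every SF library for 3 of the 4 genes counted, against 18.5% of all genes tested. A call was made for 1 of 4, against 19.3% of all genes in both directions and 8.55% as higher in BF. An unadjusted p under 0.05 was reached by 3 of 4, against 33.7% of all genes. The median log2 fold change was 2.78 over the 4 genes and 0.02 over all genes tested.

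On day 20, AAEL005192 was again the single gene that passed, and its 3 BF libraries lay far apart. Its level was 51.7, 1.89 and 5.58 CPM in the BF libraries of replicates 1, 2 and 4 and 0.808, 0.879 and 0.654 CPM in the SF libraries. All BF libraries were above all SF libraries, replicate 1 by far the most. The log2 fold change was 4.67 (SE 1.16, interval 2.17 to 7.17, n = 3 against 3, edgeR FDR p-value 0.0126). Without BF replicate 1 it was 2.28 with an FDR p-value of 0.0786, and over the 6 fits that leave out 1 library the FDR p-value ranged from 0.00636 to 0.0786. With only the groups compared the value was 4.66 and did not pass (edgeR FDR p-value 0.114).

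The other 4 genes had overlapping BF and SF libraries on day 20. AAEL022783 was at 1.45, 0.276 and 0.123 CPM in BF and 0.110, 0.0950 and 0.196 CPM in SF ovaries. Its log2 fold change was 2.26 (SE 1.33, interval -0.58 to 5.10, edgeR FDR p-value 0.244), and 0.54 without BF replicate 1. AAEL019856 was at 1.80, 0.921 and 0.185 CPM in BF and 0.147, 0.356 and 0.174 CPM in SF ovaries. Its log2 fold change was 2.16 (SE 0.96, interval 0.10 to 4.22, edgeR FDR p-value 0.127), and 1.29 without BF replicate 1. For both genes it was BF replicate 4 that fell within the SF range. AAEL011260 had 24, 0 and 4 reads in BF and 4, 3 and 2 in SF libraries. Its log2 fold change of 1.52 (interval -0.55 to 3.59, edgeR FDR p-value 0.285) became -0.52 without BF replicate 1, which held 24 of 28 BF reads. AAEL013218 had 16, 14 and 8 gene reads in BF and 11, 7 and 3 in SF libraries, with a log2 fold change of 0.82 (interval -0.29 to 1.93, edgeR FDR p-value 0.285), and 5 of its BF reads and 0 of its SF reads lay in exons. On exon reads, where it passed the filter only through the day 3 BF libraries, its fitted value was 3.82 (edgeR FDR p-value 0.176). This is no bound since the SF libraries held 0 such reads.

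Every BF library stood above every SF library on day 20 for 1 of the 4 genes counted, against 18.0% of all genes tested. A call was made for 1 of 4, against 21.4% in both directions and 9.31% as higher in BF, and an unadjusted p under 0.05 was reached by 2 of 4, against 34.6%. The median log2 fold change was 2.21 over the 4 genes and 0.02 over all genes tested. The number of calls depended on the tool on both later days. DESeq2 called 3 genes on day 10 and the same 3 on day 20, namely AAEL005192, AAEL022783 and AAEL019856, where it called 23% and 24.8% of all genes. Limma-voom called 0 on either day, against 18.0% and 19.2% of all genes. With the replicate block edgeR called 2 on day 10, AAEL005192 and AAEL019856, and 1 on day 20, AAEL005192, against 24.5% and 26.5% of all genes.

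**Figure D3:**
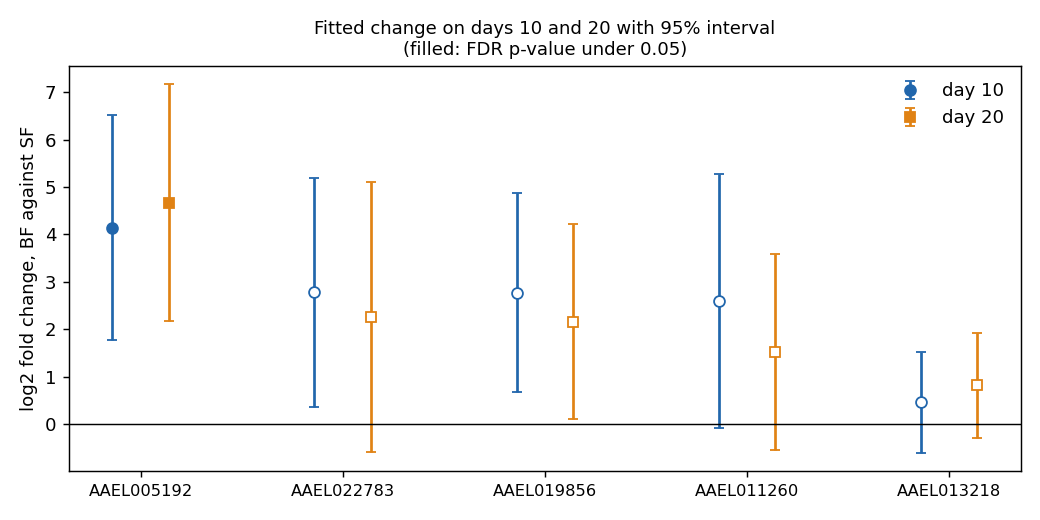
Fitted log2 fold change of BF against SF ovaries on day 10 (circles) and day 20 (squares) for each gene, 3 against 3 libraries. The 95% intervals use a spread estimated over all 19 libraries, those of day 3 included. Filled symbols have an FDR p-value under 0.05, which in this unpaired fit over all groups holds for AAEL005192 alone, at 4.14 on day 10 and 4.67 on day 20.

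The later BF libraries differed from each other by replicate. Set against the mean of the SF libraries of the same day, AAEL005192 stood at 33.1, 6.26 and 13.6 times that mean in replicates 1, 2 and 4 on day 10 and at 66.3, 2.42 and 7.15 times on day 20. For AAEL022783 the ratios were 14.8, 3.78 and 1.78 on day 10 and 10.8, 2.06 and 0.919 on day 20. For AAEL019856 they were 11.3, 5.96 and 4.03 on day 10 and 7.97, 4.08 and 0.817 on day 20. Replicate 1 was the highest BF library for 3 of 5 genes on day 10 and 4 of 5 on day 20. Over the 2820 genes with a day 3 rise, replicate 1 was the highest for 24.9% on day 10 and 32.6% on day 20.

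Yolk protein genes differed by diet in the same libraries, and on days 10 and 20 their sum was highest in BF replicate 1. The fat body markers were the vitellogenin genes AAEL010434, AAEL006126 and AAEL006138, which code for the yolk precursor and are made mainly in the fat body. All 3 were higher in BF than in SF ovaries on each day (edgeR FDR p-value at most 6.75e-04). Their summed level was low, from 0.0695 to 0.165 RPKM over the SF libraries of all days and from 0.571 to 1.29 RPKM over the BF libraries. It was highest in BF replicate 1 on day 10, at 1.08 RPKM against 0.822 and 0.843, and on day 20, at 1.29 RPKM against 0.662 and 0.571. On day 3, where AAEL005192 was lowest in BF replicate 3, the sum was lowest in that library too, at 0.647 RPKM. Replicates 1, 2 and 4 had 0.788, 1.09 and 1.16 RPKM, so replicate 1, the highest for AAEL005192, was below replicates 2 and 4 here. The part of fat body RNA in the levels of the 5 genes was not tested.

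Among other markers, the germline gene exuperantia was lower in BF ovaries on each day, with log2 fold changes of -0.39 on day 3, -0.52 on day 10 and -0.47 on day 20 (edgeR FDR p-values 0.00156, 0.00265 and 0.00413). Vasa was lower on day 3 (-0.38, 5.52e-04), with 0.03 (0.852) on day 10 and -0.15 (0.236) on day 20. The midgut gene early trypsin ranged from 0.0869 to 11.1 RPKM and was highest in BF replicate 3 of day 3, the library in which the 5 genes were lowest. The 7 prophenoloxidase genes, which mark haemocytes, summed to 1.45 to 3.01 RPKM, and 0 of 7 were called on any day by edgeR, DESeq2 or limma-voom, with an unadjusted edgeR p under 0.05 for 0 on day 3, 1 on day 10 and 1 on day 20. Nanos, late trypsin and the other 15a genes of the marker lists were not analysed here. Both follicle cell markers were higher in BF ovaries on day 3, 15a-1 by a log2 fold change of 3.78 (edgeR FDR p-value 6.51e-04) and AAEL014561 by 2.05 (0.00799). The background on that day was 32.3% of genes called higher. The summed level of these follicle markers was 7.70, 3.49, 1.13 and 2.37 RPKM in BF replicates 1 to 4 and 0.380 to 0.598 RPKM in SF ovaries, and like the 5 genes it was lowest in replicate 3. On days 10 and 20, 0 of 2 were called by edgeR, DESeq2 or limma-voom and 0 had an unadjusted p under 0.05. In the BF libraries of day 10 the follicle and haemocyte sums were highest in replicate 1, at 0.778 and 2.51 RPKM. On day 20 both were highest in replicate 2, at 0.660 and 2.75 RPKM. The part of follicle cell RNA in the day 3 levels was not tested.

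**Figure D4:**
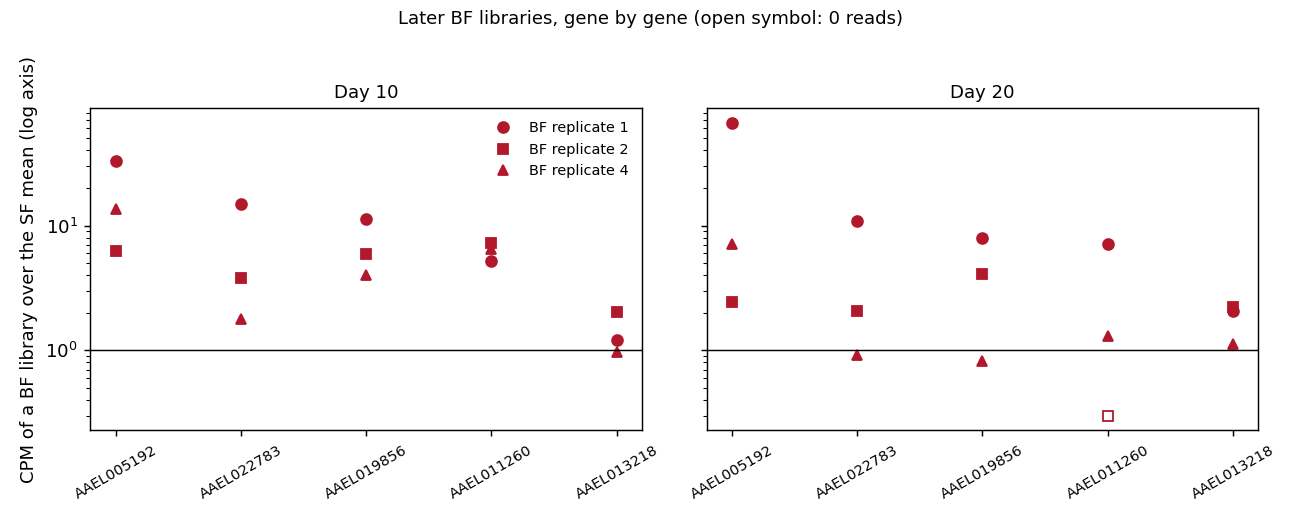
CPM of each BF library divided by the mean CPM of the 3 SF libraries of the same day, on a log axis, for days 10 and 20. Replicate 1 (circle) is the highest for AAEL005192, AAEL022783 and AAEL019856 on both days, at 66.3 for AAEL005192 on day 20, and the open symbol marks a library with 0 reads.

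Compared with day 3, little of the BF level was left on the later days. The day 10 BF mean was 0.946% of the day 3 BF mean for AAEL005192, 0.912% for AAEL019856, 0.821% for AAEL011260 and 0.247% for AAEL022783. On day 20 the values were 0.983%, 0.778%, 1.06% and 0.142% in the same order. AAEL013218 was at 2.16% and 2.17%, nearly all of it intron reads. A second set left out BF replicate 1 of the later day, chosen after seeing the data. It kept all 4 BF libraries in the day 3 mean. Replicate 1 lay above that mean for each of these genes, so keeping it there makes the remainders lower. The day 10 remainders were then 0.532% for AAEL005192, 0.642% for AAEL019856, 0.894% for AAEL011260 and 0.101% for AAEL022783. On day 20 they were 0.186%, 0.444%, 0.247% and 0.0459%. The LncRNA had the smallest remainder on both days, with and without that library, although its day 3 rise was as large as that of AAEL005192. These percentages use the day 3 values that chose the genes, so they carry no test.

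Between days 10 and 20, no change within a diet was called for any of the 4 genes counted, with AAEL011260 left out as above. For BF ovaries 0 of 4 were called by edgeR, DESeq2 or limma-voom and 0 had an unadjusted p under 0.05, against 6.87% of all genes called and 22.6% at that unadjusted level. The log2 difference of day 20 from day 10 was 0.06 for AAEL005192 (interval -1.70 to 1.83), -0.77 for AAEL022783 (-2.58 to 1.04), -0.22 for AAEL019856 (-1.74 to 1.30), 0.45 for AAEL011260 (-1.34 to 2.24) and 0.01 for AAEL013218 (-1.01 to 1.03). Apart from the narrower interval of AAEL013218, these leave room for several-fold changes, though not equally in both directions. In SF ovaries 0 of 4 were called by the same tools and 0 had an unadjusted p under 0.05, against 0.0288% of all genes called and 8.50% at that unadjusted level. The SF intervals were wider still, the widest at -4.09 to 3.59 for AAEL022783 and the narrowest at -1.50 to 0.82 for AAEL013218. For AAEL005192 the SF interval was -3.81 to 2.88, although its SF libraries of day 10 lay above those of day 20 without overlap. The spread behind these intervals was estimated over all groups, BF libraries included, so they do not measure the spread of SF libraries alone.

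A difference between the BF effects of days 10 and 20 was tested directly as an interaction. It was called for 0 of the 4 genes counted by edgeR, DESeq2 or limma-voom, and 0 had an unadjusted p under 0.05. Over all genes edgeR called 0%, with 7.72% at an unadjusted p under 0.05, and DESeq2 called 11 genes. The day 20 effect differed from the day 10 effect by a log2 value of 0.53 for AAEL005192 (interval -3.26 to 4.31), -0.52 for AAEL022783 (-4.89 to 3.85) and -0.61 for AAEL019856 (-3.88 to 2.65). For AAEL011260 the difference was -1.09 (-4.60 to 2.43) and for AAEL013218 0.35 (-1.19 to 1.90).

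SF ovaries also held more of some of these transcripts on day 3 than later. AAEL005192 was at 3.60, 4.14 and 2.35 CPM in the SF libraries of day 3, above every SF library of days 10 and 20, and its day 3 mean was 3.13 times the day 10 mean and 4.31 times the day 20 mean. AAEL022783 was at 0.780, 0.998 and 0.355 CPM on day 3, also above all later SF libraries, with ratios of 4.49 and 5.31. For AAEL019856, at 0.400, 0.811 and 0.296 CPM, this held against day 10 with a ratio of 3.14, while day 3 and day 20 overlapped. SF libraries of AAEL011260 overlapped between all days. For AAEL013218 the SF libraries of day 3, at 0.125 to 0.160 CPM, lay below those of day 10, at 0.169 to 0.205 CPM, and both overlapped with day 20. These SF values are given without a test because the day 3 SF libraries entered the choice.

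In BF ovaries on day 3 the order of the genes by RPKM was AAEL005192, AAEL022783, AAEL019856, AAEL011260 and AAEL013218, with 2299 to 5631, 358 to 901, 22.4 to 96.0, 10.3 to 32.4 and 1.69 to 7.30 RPKM over the 4 libraries. Neighbours in this order did not overlap, except that AAEL019856 and AAEL011260 did. On days 10 and 20 the same order by mean RPKM was seen in BF ovaries, with AAEL005192 at 35.2 ± 27.3 and 36.5 ± 51.3 RPKM (SD, n = 3 each) and AAEL022783 at 1.82 ± 1.87 and 1.07 ± 1.24. AAEL019856 was at 0.604 ± 0.320 and 0.515 ± 0.425 RPKM and AAEL011260 at 0.196 ± 0.0350 and 0.250 ± 0.338. On these days the ranges of AAEL022783 and AAEL019856 overlapped, as did those of AAEL019856 and AAEL011260 and of AAEL011260 and AAEL013218 on day 20. In SF ovaries AAEL005192 was the highest of the genes on all days, at 1.17 to 7.50 RPKM over the 9 libraries.

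The genes next to these loci on the chromosomes were read for comparison. Of 10 nearest neighbours, 1 on each side of each gene, 8 passed the filter. On day 3, 5 of these 8 rose and 1 fell, against 32.3% of all tested genes called higher. On day 10, 1 of 8 rose, against 8.55% of all genes, and on day 20, 3 of 8 rose, against 9.31%. AAEL023878 and AAEL023872 had too few reads to be tested. The 5 neighbours that rose on day 3 were AAEL005212 beside AAEL005192, AAEL019857 beside AAEL019856, AAEL024613 beside AAEL013218, AAEL023860 beside AAEL022783 and AAEL011263 beside AAEL011260. Each lies on the same strand as its neighbour. So do AAEL013225 beside AAEL013218, which was not called on day 3, and AAEL023878 beside AAEL005192, which was not tested.

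The closest likeness was that of AAEL005212, which lies 10853 bases from AAEL005192 at chromosome 2, 113806119 to 113807172. Its gene reads in the BF libraries of day 3 were 544258, 286877, 329377 and 389849, against 5919, 5521 and 5522 in the SF libraries. By RPKM this gene was among the 5 most abundant of all 19381 in each BF library of day 3. It rose by a log2 fold change of 6.24 on day 3 (SE 0.66, edgeR FDR p-value 1.28e-06), 2.83 on day 10 (SE 0.58, 0.00477) and 3.64 on day 20 (SE 0.60, 0.00136). The day 3 p-value is no support for the likeness, because the gene also stands just below AAEL013218 in the day 3 ranking. On day 20 its BF libraries were at 931, 110 and 319 CPM in replicates 1, 2 and 4, the same order of libraries as AAEL005192. On day 10 they were at 542, 262 and 222 CPM, where replicate 2 was above replicate 4 while the reverse held for AAEL005192. The day 20 call did not hold with only the groups compared (edgeR FDR p-value 0.0710). All of its gene reads were unique in the libraries of both diets. Whether the loci share a transcript or a read source was not tested.

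**Figure D5:**
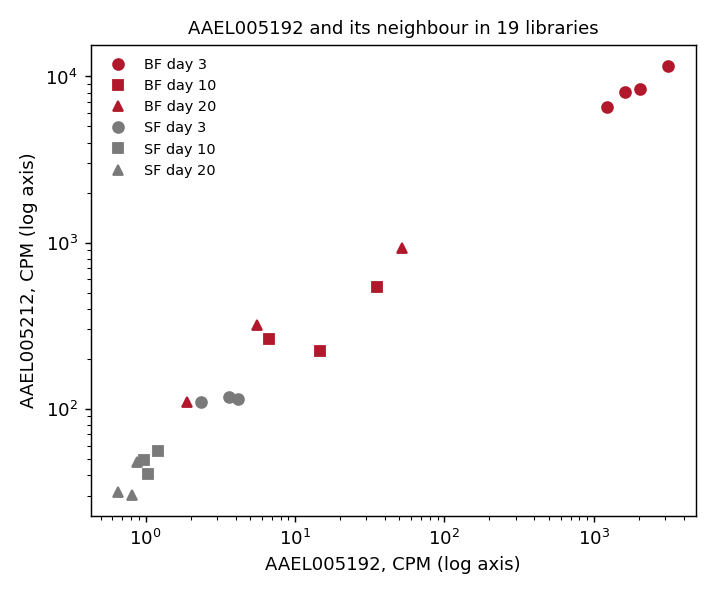
CPM of AAEL005212 against CPM of AAEL005192 in the 19 libraries, both on log axes, by diet (SF, grey; BF, red) and day (symbol). The 4 BF libraries of day 3 form the upper right and the SF libraries the lower left. The BF libraries of days 10 and 20 lie between them, except that BF replicate 2 of day 20 (1.89 and 110 CPM) lies beside the SF libraries of day 3.

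The remaining neighbours changed less. AAEL019857, 3190 bases from AAEL019856, rose by a log2 fold change of 3.55 on day 3 (edgeR FDR p-value 1.12e-06) and 1.51 on day 20 (0.0379), and its value on day 10 was 0.82 (0.288). Without BF replicate 1 the day 20 value was 1.27 (0.123), and limma-voom gave 1.63 (0.0754). AAEL011263, 682 bases from AAEL011260, rose by 1.10 on day 3 (9.77e-05) and 0.71 on day 20 (0.0264), with 0.41 on day 10 (0.193). Its day 20 value was 0.66 (0.0679) without BF replicate 1 and 0.54 (0.230) on exon reads. The LncRNA AAEL024613 beside AAEL013218 rose by 3.27 on day 3 (1.73e-04), and the LncRNA AAEL023860 beside AAEL022783 by 2.00 (2.61e-04), and neither passed on a later day. AAEL023860 had 3 to 49 gene reads per library and did not pass the filter on exon reads. AAEL014440, on the other side of AAEL019856 and on the opposite strand, fell by 1.07 on the log2 scale on day 3 (7.08e-06). AAEL027581 and AAEL013225 had log2 fold changes of 0.65 (0.167) and 0.04 (0.547) on day 3.

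The profile of each gene over the 19 libraries was set against all other tested genes by Pearson's r of log2 CPM, as a description that rests on the contrast of day 3 BF libraries with the rest. Between the 5 genes themselves r ran from 0.925 (AAEL005192 and AAEL013218) to 0.982 (AAEL022783 and AAEL019856). For AAEL005192 the most similar genes were AAEL005752 (0.993), its neighbour AAEL005212 (0.992) and AAEL027694 (0.988). For AAEL022783 they were AAEL014318 and ck (0.988 each) and AAEL023294 (0.987), and for AAEL019856 they were AAEL000636 and AAEL007293 (0.988 each) and AAEL012103 (0.987). AAEL013218 was most like AAEL004451 (0.988), AAEL017300 (0.987) and AAEL003462 (0.986), and AAEL011260 most like AAEL009314 (0.983), AAEL002539 and AAEL024256 (0.98 each). Many genes came this close, and an r of 0.98 or more was reached by 15 genes for AAEL005192, 18 for AAEL022783, 26 for AAEL019856, 23 for AAEL013218 and 3 for AAEL011260. AAEL005752 was itself abundant, with 210 RPKM in BF and 2.25 RPKM in SF ovaries on day 3 by group mean, and its CPM in BF ovaries went from 778 on day 3 to 22.3 on day 10 and 26.6 on day 20.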

How the data were processed

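For 19 ovary libraries the authors trimmed read pairs and used the CLC workbench to map them on AaegL5.0 and to count them by gene. Each deposited count is a whole number of gene, unique, exon, intron or junction reads and is not normalized. The deposited RPKM values were computed by the authors from exon reads. Of the strand setting and the annotation release, nothing is given in the sources used here. Total gene reads were fitted with edgeR 4.0.16 in R 4.3.3 as 1 model of 6 groups (filterByExpr with a minimum count of 10 and minimum total of 15, TMM, robust quasi-likelihood test), with calls made below an FDR p-value of 0.05. Gene reads per library, 34651820 to 56274885, make counting error small except for genes with few reads. All 5 genes passed the filter, AAEL011260 only through the day 3 BF libraries, and on exon reads AAEL013218 likewise.

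The genes and lists were chosen with earlier results of these data known, the genes for their day 3 rises. Also named were genes ranked among or just below them on day 3 (of 37 above the lowest, the 8 above AAEL019856), the nearest annotated gene on each side, and the 3 genes of highest Pearson's r of log2 CPM (prior count 2). Product names, homologs and promoters were not analysed here, so the eggshell list holds the 15a genes alone. RefSeq genes (AaegL5.0) matched 17477 of 19381 genes by position. Alternatives were DESeq2 1.42.0, limma-voom (limma 3.58.1), other scalings, filters, read kinds and thresholds, a replicate block and leaving out each library. The labels give all groups replicate numbers 1, 2 and 4, and the study's methods describe these as biological replicates, so same-numbered libraries were taken to be paired. Their deviations from the group means correlated at 0.045 to 0.168 between SF and BF on day 10, 0.031 to 0.075 on day 20, 0.049 to 0.099 between SF days and 0.114 to 0.174 between BF days, each best with its own number. On day 3 they correlated at -0.009 to 0.077, and 1 of 3 matched best. The unpaired fit was the main one, and paired values are given where they change a call. The model was tested on simulated counts with known fold changes. Figures were made in Python 3.11.15 with matplotlib 3.10.9.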

Additional observations from a re-analysis of the deposited data

How the results depend on the processing

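Library size, RLE and upper-quartile scaling, both other filters and the other read kinds left 1 gene called on each later day. On day 10 the count of 1 was 3 by DESeq2, 0 by limma-voom, 2 with the replicate block, 2 with only the groups compared and 0 at an FDR of 0.01. On day 20 it was 3, 0, 1, 0 and 0 in that order. It ranged from 0 to 1 with 1 library left out on either day. All genes called were 2681 on day 10 and 2976 on day 20, but 1137 and 1298 at an FDR of 0.01, and 1126 to 2404 and 1601 to 2590 with 1 library left out. The replicate block changed no call of the 5 genes other than that of AAEL019856 on day 10. It also called AAEL014440 on day 10 (-0.47, edgeR FDR p-value 0.00927). For AAEL023860 it called the BF difference of day 20 from day 10 (-1.57, edgeR FDR p-value 0.0241), which was -1.54 (0.0595) in the unpaired fit.

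Reversals touched values that were not called. Between days 10 and 20 in BF ovaries, AAEL005192 was -0.83 by limma-voom and -0.28 with the replicate block, AAEL011260 -0.78 by limma-voom, and AAEL013218 -0.04 with upper-quartile factors and -1.3e-03 with the block. The day 20 minus day 10 effect of AAEL005192 was -0.36 by limma-voom. AAEL024613 on day 10 was 0.16 on unique gene reads and 0.39 on unique exon reads. With 1 library left out, the BF difference of day 20 from day 10 ranged from -2.35 to 0.90 for AAEL005192, -2.50 to 0.57 for AAEL022783, -1.60 to 0.98 for AAEL011260, -1.11 to 0.31 for AAEL019856 and -0.19 to 0.36 for AAEL013218. The SF difference ranged from -0.62 to 0.21 for AAEL022783 and -0.07 to 0.80 for AAEL019856, and the difference of effects from -1.87 to 1.36 for AAEL005192 and -2.23 to 0.83 for AAEL022783. The day 20 value of AAEL011260 ranged from -0.52 to 2.06. Among neighbours, AAEL027581 ranged from -0.13 to 0.20 on day 10 and -0.35 to 0.47 on day 20, AAEL024613 from -0.47 to 0.22 on day 10, AAEL014440 from -0.08 to 0.27 on day 20 and AAEL013225 from -4.6e-03 to 0.03 on day 3. The cause of these changes was not tested. Depth limits AAEL011260 and AAEL013218, which had at most 24 and 17 reads in any library outside day 3 BF ovaries.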

Other observations

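Other genes of the day 3 ranking carried symbols of known families, and those named here were chosen after their values were seen. OBP46, by its symbol an odorant binding protein, had 371 gene reads over the 4 BF libraries of day 3, 46 in the lowest of them, and 1 over the 3 SF libraries, while OBP40 and OBP41 had 54 and 42 BF reads and 0 SF reads. The cecropin genes CECA and CECD_1 and the defensin gene DEFC had 3798, 4838 and 6927 BF reads, the lowest BF library of each held 10, 4 and 98, and the 3 SF libraries together 37, 33 and 61. For AAEL005192, AAEL022783 and AAEL019856 the lowest BF library held 57733, 10294 and 2084 reads. AAEL009018 and AAEL013184 combined steep rises with high levels, at 99330 and 36079 BF reads against 714 and 311 SF reads. These genes stand in the same ranking by day 3 log2 fold change as the 5 genes, so their values are given without a test.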
